A study of Homo sapiens with 6 samples.

Results

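COQ6, a ring-modifying enzyme of coenzyme Q synthesis, was taken up together with 9 other genes of that pathway: PDSS1, PDSS2, COQ2, COQ3, COQ4, COQ7, COQ8A, COQ9 and COQ10B. COQ6 was chosen by its large fall in the comparison described here, so its values are a description and carry no test. The other genes were added for their function, by a list drawn up with results of these arrays known. Every probe set whose platform annotation gives exactly 1 gene symbol, that symbol being one of the 10, was used. All 10 genes were on the array, read by 14 probe sets of 22215, and 0 probe sets with several symbols named any of them. By genes, these are 10 of 11963 that have a probe set of their own.

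The cells were HCT116, an established human colon cancer line. In the treated group they stably carried an NFX1-91 shRNA delivered by the lentiviral vector FUGW, and in the control group a β-galactosidase shRNA in that vector, with 3 arrays each. NFX1-91 is a splice form of the zinc finger protein NFX1, known as a repressor of transcription. Both groups thus expressed a hairpin, and 1 cell line was used. The labels do not say whether a group's arrays are of different cultures. Each p-value therefore rests on array-to-array spread that may be technical only, and the number of arrays limits the precision.

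Coenzyme Q, or ubiquinone, is a lipid of the inner mitochondrial membrane that carries electrons from respiratory complexes I and II, and from several other dehydrogenases, to complex III. A polyprenyl tail made from mevalonate pathway units is joined to a ring derived from tyrosine, and the ring is then hydroxylated, methylated and decarboxylated by enzymes that assemble on the matrix side of that membrane. Inherited loss of these enzymes causes primary coenzyme Q deficiency, and for COQ6 a kidney disease with hearing loss is known.

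Signals below are the deposited intensities, each a share of its array's total, multiplied so that every array has a mean of 500. Differences are log2 fold changes, NFX1-91 shRNA minus control, of log2(signal + 16), which understates the change of dim probe sets. The adjusted p is that of limma with Benjamini-Hochberg adjustment over all 22215 probe sets, and a probe set passed at an adjusted p under 0.05. Arrays correlated at 0.992 to 0.995 within groups and 0.983 to 0.985 between them. The hairpin's target NFX1 has 3 probe sets, and which splice form each reads was not tested. The brightest read 160, 144 and 139 in control arrays and 124, 139 and 138 in NFX1-91 shRNA arrays (log2 fold change -0.13, adjusted p = 0.40). The middle one read 81.7, 90.2 and 70.1 against 78.5, 81.0 and 69.3 (-0.06, adjusted p = 0.775). The dimmest read 16.8, 17.7 and 24.4 against 8.87, 8.83 and 4.56 and was the one that passed (-0.60, adjusted p = 0.0137). Its NFX1-91 shRNA signals all lie under the offset, so the size is not settled: it was -1.32 with an offset of 1 and -0.23 with an offset of 64, and it did not pass at a threshold of 0.01. Of 9 colon epithelium markers the keratins KRT18 (mean 7403 in controls) and KRT8 (5556), EPCAM (4350) and the cadherin CDH1 (647) were bright, while VIL1 (5.01) and LGALS4 (6.45) lay below the offset. Of these 9 markers 2 rose, KRT18 by 0.54 and KRT8 by 0.35, and 3 fell, CDH1 by 0.50, the dim KRT20 by 0.60 (-0.32 with an offset of 64) and EPCAM by 0.15. Over all genes, each by its brightest probe set, 13.4% were higher and 16.6% lower. Whether the markers differ from other genes was not tested. CDX1 (mean 45.5 in controls) and CDX2 (66.95) did not pass (0.34 and 0.09, adjusted p = 0.0673 and 0.633), nor did VIL1 and LGALS4. For CDX1 every NFX1-91 shRNA array lay above every control. Of the 5 fibroblast markers COL1A1, COL1A2, COL3A1, PDGFRB and LUM, 0 passed by their brightest probe sets, though a dimmer COL1A1 probe set rose by 0.68 (65.3 to 114, adjusted p = 0.00236). Of 3 measured blood markers, PTPRC and CD3E did not pass, and HBB had a log2 fold change of 0.45 (adjusted p = 0.0470) at a mean of 31.9 in controls. It was 0.24 with an offset of 64 and ceased to pass in 9 of 16 alternative settings, among them those leaving out control replicate 2 or 3 or NFX1-91 shRNA replicate 1 or 3 (adjusted p up to 0.137). The part of these markers in the results below was not tested.

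COQ6 is the flavin-dependent monooxygenase that hydroxylates the ring of the coenzyme Q precursor. Its single probe set read 176, 182 and 172 in the control arrays and 34.2, 33.3 and 41.0 in the NFX1-91 shRNA arrays. The groups were far apart, the highest array with the NFX1-91 hairpin lying well below the lowest control. The mean went from 176 ± 4.94 to 36.2 ± 4.21 (SD, n = 3 per group), a signal 4.88-fold lower, or a change of -79.5%. On the offset scale the log2 fold change was -1.89, and 19 of the 22215 probe sets, COQ6 included, had one as low. Its mean over all arrays lay at percentile 53.0 of brightness. COQ6 has no second probe set here with which to compare this one. In RNA from bulk cultures, fewer cells of a type and less RNA per cell cannot be told apart.

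COQ6 lies on chromosome 14. In RefSeq (GRCh38.p14) one of its promoter windows, chr14:73950052-73950351 on the + strand, shares 293 of its 300 bases with the window of FAM161B, chr14:73950045-73950344 on the - strand. At this window the 2 genes start head to head, though their RefSeq spans overlap. COQ6 is shown because it is the member with the largest difference, and of its windows this one because it overlaps that of FAM161B. Beside it is the window of COQ9, chr16:57447229-57447528 on the + strand, the other member that was lower. Capitals mark matches, on either strand, to any of 5 motifs. These are the E-box (CACGTG), the ETS core (CCGGAA), the CCAAT box, the GC box (GGGCGG) and the core of the site of nuclear respiratory factor NRF1 (CGCATGCG).
COQ6: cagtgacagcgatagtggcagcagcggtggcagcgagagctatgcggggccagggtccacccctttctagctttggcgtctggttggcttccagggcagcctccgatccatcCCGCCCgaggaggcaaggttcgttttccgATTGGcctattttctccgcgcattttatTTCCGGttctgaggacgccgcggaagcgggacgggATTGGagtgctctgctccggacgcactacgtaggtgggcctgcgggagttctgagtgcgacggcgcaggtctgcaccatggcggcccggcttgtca
COQ9: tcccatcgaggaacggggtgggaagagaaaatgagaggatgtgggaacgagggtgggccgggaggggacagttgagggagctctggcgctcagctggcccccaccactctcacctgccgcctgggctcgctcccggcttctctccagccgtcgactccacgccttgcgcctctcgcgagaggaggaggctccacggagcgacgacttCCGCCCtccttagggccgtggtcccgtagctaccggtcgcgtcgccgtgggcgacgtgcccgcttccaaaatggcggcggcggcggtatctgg
The COQ6 window held 1 ETS core, 2 CCAAT boxes and 1 GC box, and the COQ9 window 1 GC box. Neither held an E-box or the NRF1 core, which says only that these letters are not in these windows. RefSeq windows were found for 8 of the 10 genes, 14 windows in all. Of the 14, 10 held the GC box, 8 CCAAT, 7 the ETS core, 0 the E-box and 0 the NRF1 core. Over all 35116 windows the shares were 45.0%, 34.6%, 17.2%, 7.26% and 2.02%. A gene can have several windows, and those of COQ7 overlap, as do 2 of COQ6, so the 14 are not independent. These 2 further COQ6 windows, which start upstream of the one printed and share most of their bases, held 0 of these motifs. A match is a description of letters, not a site in use.

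Genes near COQ6, from a list of 4, were also read where measured. FAM161B had no probe set of its own here. ENTPD5, an endoplasmic reticulum nucleotidase whose RefSeq span overlaps that of COQ6 on the other strand, read 39.9, 54.1 and 56.2 in controls and 34.0, 20.2 and 26.1 in NFX1-91 shRNA arrays. Every NFX1-91 shRNA array was below every control array, though the probe set is dim (percentile 39.1). ENTPD5 fell by 0.63 on the log2 scale (SE 0.166, adjusted p = 0.0224), a size that depends on the offset (-0.89 with 1 and -0.33 with 64). The call was lost in 6 of 15 settings, including a replicate block (adjusted p = 0.0564) and leaving out control replicate 2 (0.0878) or 3 (0.0826) or NFX1-91 shRNA replicate 2 (0.0939) or 3 (0.0669). ALDH6A1, a mitochondrial enzyme of valine breakdown that lies further along, had 5 probe sets. The brightest went from 147 ± 16.2 to 116 ± 9.13 (log2 fold change -0.30, adjusted p = 0.0814), 3 dimmer ones fell by 0.42, 0.47 and 0.54 (adjusted p = 0.0273, 0.0269 and 0.0326), and the dimmest did not pass. The brightest passed in 3 settings: without control replicate 1 (0.0267), with dim probe sets left out (0.0410) and with array weights (0.0217). Of the 4 listed neighbours FAM161B and ZNF410 were not measured. BBOF1, which lies between ENTPD5 and ALDH6A1, and PTGR2, beyond ZNF410, were not on the list.

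**Figure D1:**
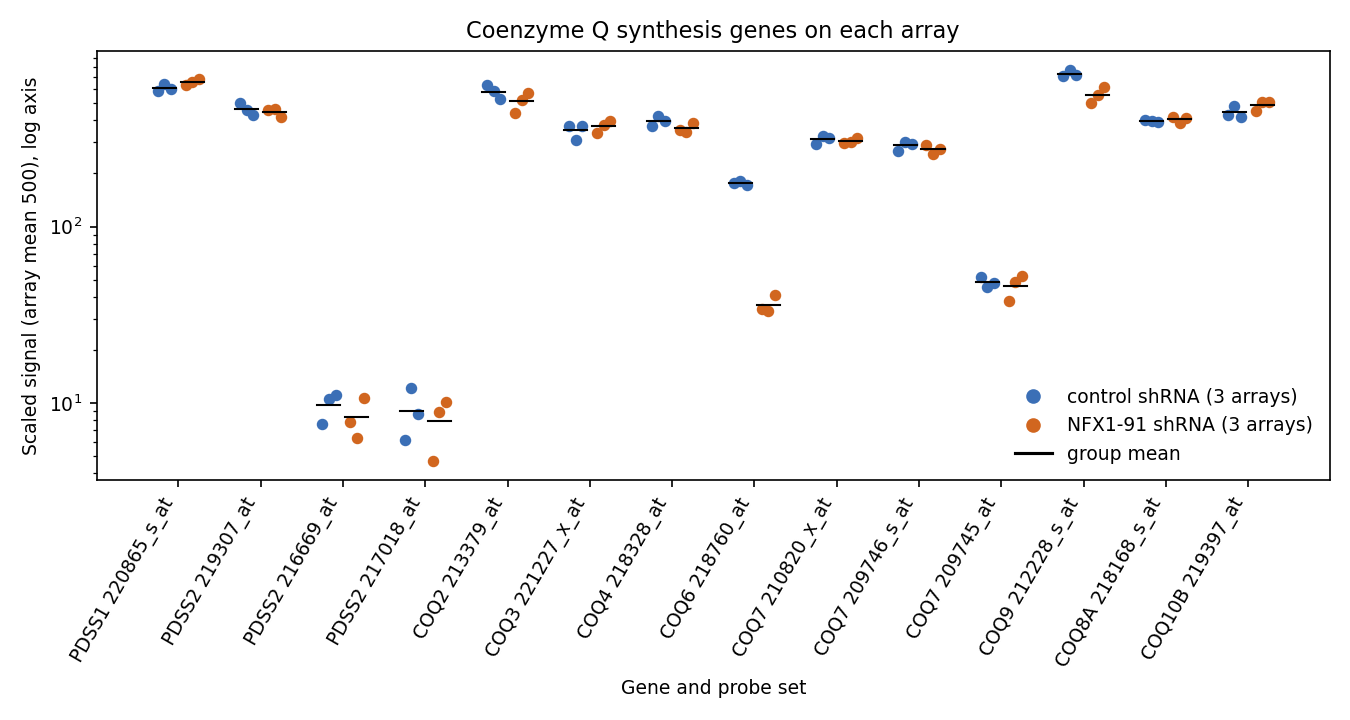
Scaled signal (log axis, array mean 500) of the 14 probe sets of 10 coenzyme Q synthesis genes on each of the 6 arrays, blue for control shRNA and orange for NFX1-91 shRNA, with a black line at each group mean. COQ6 is the probe set whose groups stand far apart (176 against 36.2), COQ9 shows a smaller gap (734 against 559), and the groups of the other 12 overlap.

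Across the 13 probe sets of the other 9 genes, 1 was lower, 0 were higher and 12 did not pass. Over all probe sets 13.7% were lower and 12.0% higher, so 1 of 13 lower and 0 of 13 higher is no more than the background. Control and NFX1-91 shRNA signals were fully separate for 1 of the 13, against 39.0% of all probe sets. Their median log2 fold change was -0.06, with 9 values below 0 and 4 above, beside a median of 0.01 over all probe sets. The values ran from -0.39 to 0.14, beside -1.89 for COQ6. This split is by probe set and not by gene, since every probe set of COQ7 and of PDSS2 is among the 9. Those of PDSS2 under the offset give no usable direction.

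COQ9 is a lipid-binding protein that holds the substrate for the hydroxylase COQ7. It was the member other than COQ6 that fell. Its probe set read 714, 768 and 720 in the control arrays and 502, 558 and 616 in the NFX1-91 shRNA arrays. All arrays with the NFX1-91 hairpin were below all controls, and they were spread over a wider range. The mean went from 734 ± 29.7 to 559 ± 57.3 (SD, n = 3 per group), a change of -23.9%, with a log2 fold change of -0.39 (SE 0.0776, 95% interval -0.56 to -0.21, adjusted p = 0.00607). The call held in 16 of 16 alternative settings, with an adjusted p of 0.000728 to 0.0358. This is a shared probe set (its name ends in _s_at, which marks probes that can bind more than 1 transcript), and it is the sole one for COQ9.

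COQ7, the hydroxylase that COQ9 serves, had 3 probe sets, and 0 of them passed. The brightest read 295, 326 and 316 against 298, 303 and 319 (log2 fold change -0.03, 95% interval -0.19 to 0.13, adjusted p = 0.854). The sign of this value turned to 0.02 with quantile normalization and to 0.004 with median centring. The second read 269, 302 and 295 against 291, 258 and 276 (-0.07, 95% interval -0.24 to 0.11, adjusted p = 0.621), and the dimmest 51.7, 45.7 and 48.1 against 38.0, 48.6 and 52.2 (-0.06, 95% interval -0.36 to 0.25, adjusted p = 0.821). In all 3 the groups overlapped, and the dimmest had the widest interval.

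PDSS1 and PDSS2 are the subunits of the enzyme that builds the polyprenyl tail. PDSS1 read 589, 645 and 598 in controls and 631, 659 and 688 in NFX1-91 shRNA arrays, with control replicate 2 above the lowest of the others (log2 fold change 0.11, 95% interval -0.03 to 0.25, adjusted p = 0.245). The bright PDSS2 probe set read 503, 458 and 427 against 456, 465 and 415 (-0.05, 95% interval -0.23 to 0.12, adjusted p = 0.697). Neither subunit passed. The 2 other PDSS2 probe sets, for which the platform annotation gives the same source transcript, had means of 9.74 and 8.98 in controls and 8.32 and 7.92 in NFX1-91 shRNA arrays. Those lie below the offset of 16, as did 24.1% to 25.9% of the probe sets of an array, and give no usable direction (adjusted p = 0.712 and 0.819).

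COQ2 attaches the tail to the ring precursor. It read 632, 586 and 527 in controls and 443, 519 and 573 in NFX1-91 shRNA arrays, so that the groups overlapped and both were widely spread. Its log2 fold change was -0.18 (95% interval -0.41 to 0.05, adjusted p = 0.242), the widest reach towards a fall among the members that did not pass. COQ3, the methyltransferase that acts on the ring's hydroxyl groups, read 372, 311 and 369 against 338, 374 and 396 (0.07, 95% interval -0.13 to 0.28, adjusted p = 0.638). It is read by a probe set ending in _x_at, which marks probes that may bind unrelated transcripts. The brightest COQ7 probe set and the called brightest ones of KRT8, KRT18, HBB, SDHA and TFAM end so too.

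COQ4, needed for the ring steps and for the assembly of the enzymes, read 370, 424 and 394 in controls and 351, 346 and 385 in NFX1-91 shRNA arrays. The highest NFX1-91 shRNA array lay above the lowest control. Its log2 fold change was -0.13 (95% interval -0.30 to 0.04, adjusted p = 0.264), and it passed as lower in 1 alternative setting, with array weights (-0.20, adjusted p = 0.0353). COQ8A, an atypical kinase of the ADCK family that supports the assembled enzymes, gave nearly equal signals, 402, 399 and 390 against 419, 388 and 413 (0.03, 95% interval -0.11 to 0.17, adjusted p = 0.761). COQ10B, a lipid-binding protein thought to deliver coenzyme Q to its sites of use, read 431, 483 and 415 against 452, 511 and 505 (0.14, 95% interval -0.04 to 0.32, adjusted p = 0.251). It had the highest log2 fold change of the members, and its groups overlapped through control replicate 2.

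**Figure D2:**
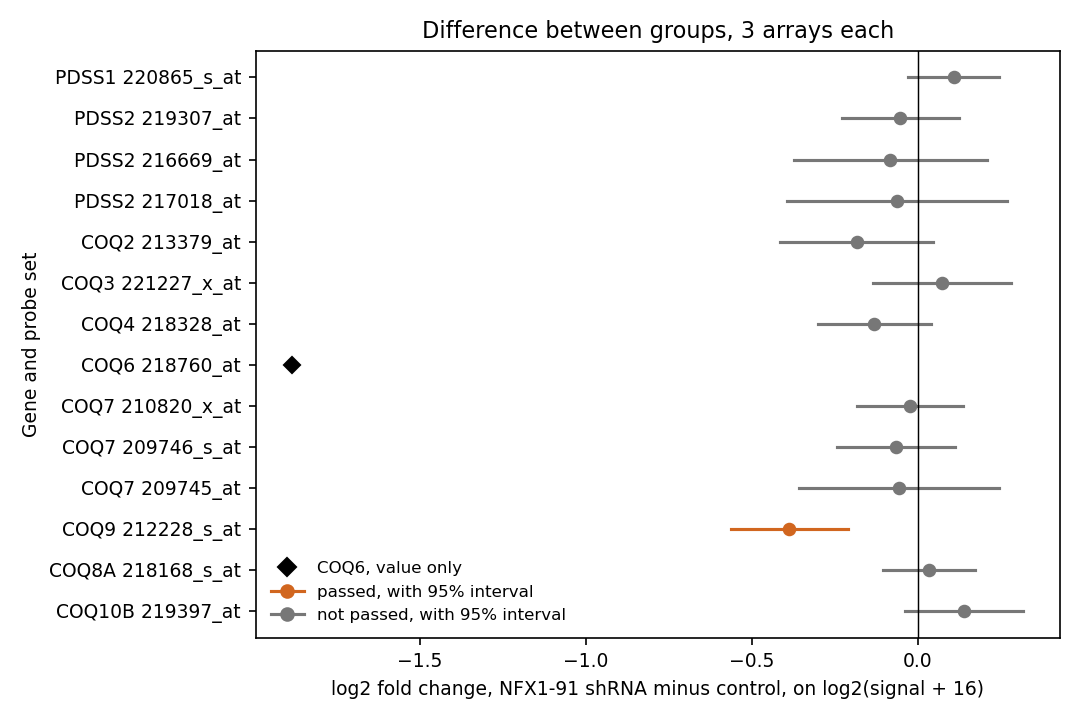
Log2 fold change (NFX1-91 shRNA minus control, on log2(signal + 16), 3 arrays per group) of the 14 probe sets. Bars are 95% intervals from limma, orange where the probe set passed and grey where it did not; COQ6, the black diamond at -1.89, is given without interval or test. COQ9 (-0.39) is the coloured point, and the intervals of the other 12 all span 0.

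Other genes around the pathway were grouped in 12 lists by role, and each gene was read by its brightest probe set. Of 54 measured genes of 78 listed, 13 were lower, 9 higher and 32 did not pass, and their median log2 fold change was -0.004. Over all 11963 genes 16.6% were lower and 13.4% higher, with a median of 0.004. Of the 22 genes called, 13 kept their call in all 16 alternative settings, a threshold of 0.01 among them, and 9 lost it in at least 1. The 16 do not include averaging all probe sets of a gene, so they do not vary the choice of the brightest one. The count itself fell to 14 without NFX1-91 shRNA replicate 2.

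Nearest to COQ6 itself, the further coenzyme Q genes were represented by COQ8B, the close relative of COQ8A, at signals of 6.87 ± 4.81 and 11.2 ± 3.86, below the offset (adjusted p = 0.349), and COQ5 and COQ10A were not measured. COQ6 takes its electrons from a mitochondrial ferredoxin and its reductase. Of that group, FDX2 and FDXR were not measured, and FDX1, the related ferredoxin of steroid synthesis, read 1334, 1382 and 1575 in controls and 1690, 1740 and 1795 in NFX1-91 shRNA arrays. Every NFX1-91 shRNA array was above every control, and this probe set rose by 0.28 (SE 0.0637, adjusted p = 0.0105). The other FDX1 probe set had a log2 fold change of -0.03 (adjusted p = 0.761), and the rise lost its call without control replicate 2 (adjusted p = 0.0534), without NFX1-91 shRNA replicate 2 (0.0503) and without a variance trend (0.0566). For the ring precursor, TAT, which starts tyrosine breakdown (38.7 ± 7.85 and 34.5 ± 7.04, adjusted p = 0.676), and the aldehyde dehydrogenase ALDH3A1 (22.7 ± 5.01 and 29.1 ± 7.17, adjusted p = 0.403) were dim and did not pass. ADCK2, another ADCK family gene, had a log2 fold change of 0.21 (adjusted p = 0.0739). It passed in 4 of 16 settings: without control replicate 1 (0.0136), with quantile normalization (0.0402), with dim probe sets left out (0.0489) and with array weights (0.00727).

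The tail's building blocks come from the mevalonate pathway, where 1 of 8 measured genes rose and 2 fell (median -0.01). ACAT2, which condenses acetyl-CoA, went from 553 ± 32.1 to 795 ± 37.3, a rise of 0.51 (adjusted p = 0.000465). PMVK, phosphomevalonate kinase, read 366, 372 and 329 against 221, 219 and 253 and fell by 0.59 (adjusted p = 0.00107), and MVD, the next enzyme, from 188 ± 14.3 to 134 ± 10.0, a fall of 0.44 (adjusted p = 0.00930). For none of the 3 did the groups overlap. HMGCS1, which makes HMG-CoA, did not pass by its brightest probe set (0.16, adjusted p = 0.157), while a dimmer one rose by 0.47 (adjusted p = 0.00339). Among other users of prenyl diphosphates 2 of 5 rose and 1 fell. PGGT1B, a subunit of a protein prenyltransferase, rose by 0.85, from 174 ± 5.88 to 329 ± 39.5 (adjusted p = 0.000287), RABGGTB, its counterpart for RAB proteins, fell by 0.24 (adjusted p = 0.00187), and DHDDS, which makes dolichol precursors, rose by 0.29 (adjusted p = 0.0292). DHDDS lost its call when control replicate 2 or 3 or NFX1-91 shRNA replicate 2 or 3 was left out (adjusted p = 0.0774 to 0.134). It also lost its call without a variance trend (0.0525) and with a replicate block (0.0764).

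Downstream, coenzyme Q is oxidised by complex III, of which 3 of 7 measured subunits were lower and 0 higher (median -0.09). Over all genes 16.6% were lower and 13.4% higher, and whether these subunits differ from other genes was not tested. Cytochrome c1, CYC1, read 4315, 4058 and 4013 in controls and 2625, 2563 and 2546 in NFX1-91 shRNA arrays. The groups were widely separated, and CYC1 fell by 0.68 (SE 0.0386, adjusted p = 1.08e-05). UQCRB, a small subunit that binds ubiquinone, fell by 0.23 (adjusted p = 0.000699), with a further probe set falling by 0.19 and the dimmest at 0.07 (adjusted p = 0.548). UQCRQ fell by 0.15 (adjusted p = 0.0438), a call lost with median centring (adjusted p = 0.156) and without any of 5 arrays, control replicate 3 being the exception (highest adjusted p 0.167, without NFX1-91 shRNA replicate 2). That call was lost too without a variance trend (adjusted p = 0.198) and with a replicate block (0.0654).

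Of 11 measured genes tied to the reduction of coenzyme Q outside complex I, 1 rose, 3 fell and 7 did not pass (median -0.02). They are not all separate enzymes, since SDHA, SDHC and SDHD belong to complex II, and ETFA and ETFB carry electrons to ETFDH. NQO1, a cytosolic quinone reductase, went from 3116 ± 149 to 2216 ± 81.1 and fell by 0.49 (adjusted p = 0.000116), as did both of its dimmer probe sets. ETFB, which passes electrons from fatty acid oxidation, fell by 0.34 (adjusted p = 0.00834), and SDHC, a membrane anchor of complex II, by 0.22 (adjusted p = 0.00335), while SDHA, its flavoprotein, rose by 0.21 (adjusted p = 0.0199). A dimmer SDHC probe set also fell, by 0.20 (adjusted p = 0.0186), and the others did not pass (adjusted p = 0.0955 and 0.645). SDHA lost its call when control replicate 2 or 3 or NFX1-91 shRNA replicate 1 or 3 was left out (adjusted p = 0.0571 to 0.0877). It also lost its call without a variance trend (0.1015). Of 5 measured core subunits of complex I, NDUFS1 rose by 0.41 (adjusted p = 0.000396) and NDUFV2 fell by 0.36 (adjusted p = 0.000436).

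**Figure D3:**
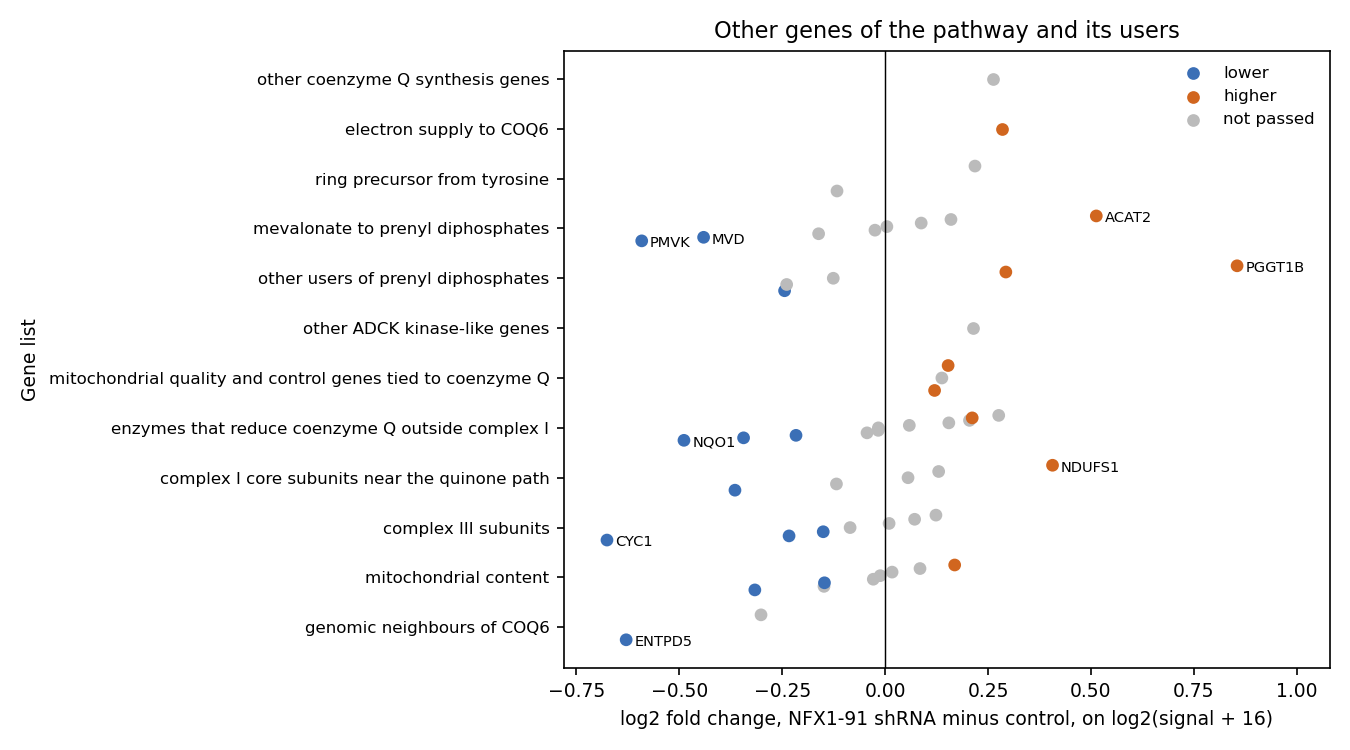
Log2 fold change (NFX1-91 shRNA minus control, on log2(signal + 16), 3 arrays per group) of 54 genes in 12 lists around coenzyme Q, each by its brightest probe set; blue is lower, orange higher and grey not passed, and genes beyond 0.4 in either direction are named. Points lie on both sides of 0 in most lists with several genes, from -0.68 (CYC1) to 0.85 (PGGT1B); spacing within a list only separates the points.

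General mitochondrial genes went both ways, with 1 of 8 higher and 2 lower (median -0.02). TFAM, which packages mitochondrial DNA, fell by 0.32 (adjusted p = 0.00152), though its 2 other probe sets did not pass. The brightest probe set of the import receptor TOMM20 fell by 0.15 (adjusted p = 0.0140), while its other one, also bright, had a log2 fold change of 0.02 (adjusted p = 0.897), and the outer membrane channel VDAC1 rose by 0.17 (adjusted p = 0.0416). The TOMM20 call was lost with median centring (adjusted p = 0.0857), without NFX1-91 shRNA replicate 2 (0.0713) and without a variance trend (0.142). That of VDAC1 was lost without control replicate 2 or without any 1 NFX1-91 shRNA array (0.0804 to 0.134). It was lost too with quantile normalization (0.0919), with a replicate block (0.0667) and without a variance trend (0.177). The VDAC1 value was 0.11 without control replicate 1. Of 3 measured genes that regulate mitochondrial coenzyme Q enzymes or transport, STARD7, a lipid carrier, rose by 0.15 (adjusted p = 0.0179), the protease YME1L1 by 0.12 (adjusted p = 0.0487), and PARL, a rhomboid protease, had 0.14 (adjusted p = 0.161). The other YME1L1 probe sets did not pass, bright ones among them (0.12 and 0.06, adjusted p = 0.243 and 0.386). STARD7 lost its call without control replicate 3 or NFX1-91 shRNA replicate 1 or 2 (0.0592 to 0.0832) and YME1L1 without any single array (0.0525 to 0.157). Without a variance trend both calls were lost too (0.143 for STARD7 and 0.237 for YME1L1). YME1L1 also lost its call with quantile normalization (0.0628), an offset of 1 (0.0516) and a replicate block (0.0712). PARL passed without control replicate 1 (0.0192) and with array weights (0.0287).

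The genes whose pattern was most like that of COQ6 were sought among 5972 genes brighter than the median gene. The measure was the root mean square difference over the 6 arrays between log2(signal + 16) profiles, each centred on its own mean. The nearest were the leucine transporter SLC7A5 (0.0635), spermidine synthase SRM (0.0667), the phosphatase CDC25B (0.0716), the repair scaffold XRCC1 (0.0973) and GALNT12, which starts mucin-type glycosylation (0.101). SLC7A5 went from 2905 to 764, SRM from 1222 to 316, CDC25B from 1544 to 372, XRCC1 from 290.0 to 71.3 and GALNT12 from 456 to 118. With 2 groups of 3 arrays, such likeness is mostly a fall of similar size, and these values are a description with no test.

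**Figure D4:**
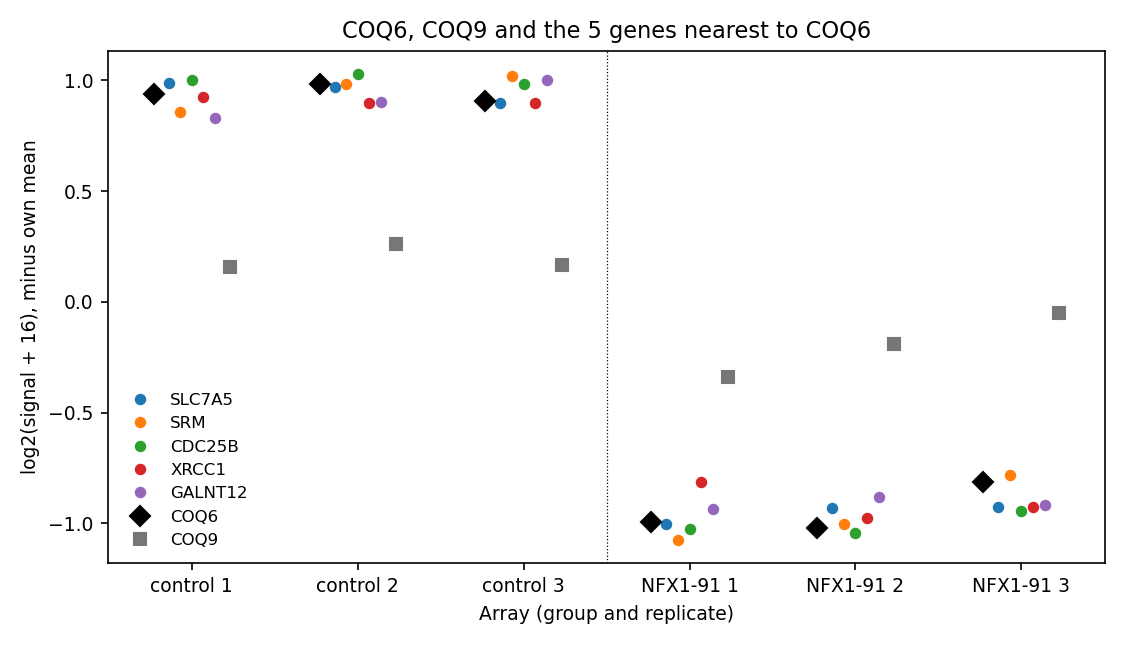
Log2(signal + 16) minus its own mean over the 6 arrays, for COQ6 (black diamonds), COQ9 (grey squares) and the 5 genes nearest to COQ6 (coloured dots), by array. COQ6 and the 5 genes drop together from the control to the NFX1-91 shRNA arrays, while COQ9 makes a smaller step of -0.39.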

How the data were processed

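Total RNA of HCT116 cells was made into biotin-labelled cRNA and hybridised to Affymetrix arrays, per the labels' protocols. Sample titles gave each array's group and number. The deposited table holds linear intensity values for 22215 probe sets, and each column sums to 1. The probe summary and scaling steps are not given in the sources used here. Between 397 and 451 values of an array repeat 1 low value, at most 0.797 on the scale used here, and the lowest signal of a member was 4.70.

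Each array was multiplied to a mean of 500, with no further normalization, and log2(signal + 16) was fitted, with no pairing, by limma 3.58.1 under R 4.3.3 (lmFit, then eBayes with trend; two-sided). P-values were adjusted by Benjamini-Hochberg over all probe sets, with a threshold of 0.05. The steps were tested on simulated data. Of the probe sets, 19064 had 1 symbol in the platform annotation, 1043 several and 2108 none. Symbols were checked by gene identifier against RefSeq (19052 matched, 0 changed).

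The members, gene lists and tests were chosen with earlier results of these data known. Named genes were all members, NFX1, up to 4 called genes per list with the smallest adjusted p (lists of 5 or fewer whole), and the 5 genes most like COQ6. HMGCS1 and the colon markers VIL1, LGALS4, EPCAM, CDX1 and CDX2 fall outside this rule and were named after their values were seen. Alternatives were quantile normalization, median centring, offsets of 1 and 64, leaving out probe sets below the 40th percentile of brightness, a constant prior variance, a robust prior, array weights, the replicate number as a block, each array left out, a threshold of 0.01 and, for the lists, averaging all probe sets of a gene. Promoter windows are from RefSeq on GRCh38.p14. The files name no build. Plots were made in Python 3.11.15 using matplotlib 3.10.9.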

Additional observations from a re-analysis of the deposited data

How the results depend on the processing

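COQ9 remained lower and 0 members were higher in every setting run. COQ6 kept its sign in those run for it: quantile normalization, median centring, both other offsets and each array left out. The log2 fold change of COQ6 was -2.26 with an offset of 1 and -1.26 with an offset of 64, since the offset weighs on a signal of about 36.2, and -1.95 to -1.85 when each array was left out. The count of other coenzyme Q probe sets that were lower was 2 with array weights, COQ4 being added, and 1 in each leave-one-out fit. Calls over all probe sets numbered 5703, and 3567 at a threshold of 0.01, and 3856 to 5962 with an array left out. The genes called in the pathway lists numbered 22, against 14 without a variance trend, 13 at a threshold of 0.01, and 14 to 26 with an array left out. The cause of these shifts was not tested, apart from the stricter threshold itself. Median centring moved the share of all calls that were higher from 46.6% to 52.5%.

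Values near 0 changed sign. The brightest COQ7 probe set read 0.0247 with quantile normalization and 0.0040 with median centring, and COL1A1 -0.0053 with array weights. With each array left out in turn, the log2 fold change ran from -0.0072 to 0.1336 for COQ3, -0.1264 to 0.0429 and -0.0637 to 0.0048 for the dimmest and brightest COQ7 probe sets, -0.1072 to 0.0064 and -0.1448 to 0.0377 for PDSS2 (the brightest and the dimmest), -0.1448 to 0.0069 for the middle NFX1 probe set, -0.0504 to 0.0718 for COL1A1, -0.0011 to 0.1717 for COL1A2 and -0.1979 to 0.0767 for COL3A1. In none of these did the probe set pass.

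With the replicate number as a replicate block 4914 probe sets were called, against 5703. The deviations of same-numbered arrays correlated at -0.0584, 0.0869 and -0.0884, so the numbers are taken as names. Under the block the pathway lists had 17 called genes, and 1 coenzyme Q probe set other than COQ6 was lower. The array gives no detection calls, and signals under the offset, such as those of 2 PDSS2 probe sets, carry no order.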

Other observations

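Among the NFX1-91 shRNA arrays, replicate 3 gave the highest signal for 8 of the 12 coenzyme Q probe sets with a mean of at least 16, and replicate 1 the lowest for 7. Over all probe sets past that same floor, replicate 3 was the highest of the 3 for 43.0% and replicate 1 the lowest for 42.9%. COQ2 and COQ9 were among the members with both, reading 443 and 502 in replicate 1 and 573 and 616 in replicate 3. This was noticed after the values were seen, and whether the members differ from other probe sets in it was not tested.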
